A study of Rattus norvegicus with 4 samples.

Results

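The contractile actin bundles of a cell, its stress fibres, were followed here through 10 genes in astrocytes grown with and without neurons. The genes were Tagln, Acta2, Actg2, Cnn1, Cnn2, Myl9, Tpm1, Tpm2, Tpm4 and Vcl. They were picked as genes of astrocyte shape because of their values in all 3 comparisons of these arrays, so their own values, and the calls among them, are given below as a description that supports nothing further. A probe belonged to a gene when its name in the scanner files was that gene's symbol or its accession was a RefSeq transcript of the gene. By this rule 8 of the 10 genes had probes, 15 in all, among 21366 genes that could be tested. Acta2 and Cnn2 had no matching probe. Each of the 15 probes gave signal well above background for every RNA on every array, and none was saturated, so that the filter on dim probes took no member away.

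Stress fibres are bundles of actin filaments and non-muscle myosin that pull on the cell's adhesions. Monomeric actin controls the transcription factor SRF through its MRTF partners, which switch on many genes of the bundle. Cultured astrocytes in serum spread flat and form stress fibres, and several of these genes are better known from smooth muscle and pericytes.

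The astrocytes were primary cells from the cortex of Wistar rat pups at postnatal day 1, grown in medium with 10% fetal bovine serum before neurons were added. The neurons were plated in Neurobasal medium with B-27, for which the paper names no serum. How much serum was left at harvest is not stated. In co-culture (CC), hippocampal neurons of mouse embryos at day 18 lay on top of them, so that mouse mRNA was read by rat probes. CC-CJ is co-culture after cold jet, a stream of ice-cold buffer that washes the neurons away. AA-CJ is astrocytes that never met neurons, kept in like conditions and given the same cold jet. Every one of the 4 arrays carried CC-CJ in Cy3. Its partner in Cy5 was AA-CJ on 2 arrays and CC on 2 more, with no dyes swapped and a single slide for all. The labels call the arrays biological replicates, each from more than 3 independent samples, and do not say whether arrays with the same number shared their CC-CJ RNA.

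M is log2 of Cy3 over Cy5 after background correction and a loess fit on intensity within the array, so a positive M means more signal in CC-CJ. CC was set against AA-CJ by the difference of their M values, in which both RNAs carry the same dye. CC-CJ cancels in it only as far as the CC-CJ RNA of both pairs of arrays was alike. AA-CJ was given the cold jet and CC was not, so effects of neurons, mouse RNA and the jet cannot be told apart there. Without a dye swap, a probe's bias for Cy3 or Cy5 cannot be told apart from an RNA difference in either comparison of CC-CJ. The loess fit follows intensity and does not remove such a bias of single probes, which was not tested. This holds for every M and fold of CC-CJ below. Between 50.1% and 62.6% of all probes per channel were well above background, and precision was limited by having 2 arrays for each comparison. Astrocyte markers were present: all 10 on the list passed the filter, among them Gfap, the glial intermediate filament, and Aqp4, the astrocytic water channel. Of the neuronal markers, 7 of 10 fell from CC to CC-CJ at an adjusted p under 0.05, and 4 of 10 stood above AA-CJ in CC-CJ at the same threshold, a count that fell to 1 (Gap43) without replicate 1 of the AA-CJ arrays. Gap43, a growth cone protein, had M of -2.69 and -2.83 against CC and 2.10 and 1.96 against AA-CJ, so its signal was lower after the cold jet and still above that of astrocytes alone.

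Tagln (transgelin, SM22) is a calponin-family protein that bundles actin filaments, read by 1 probe at chr8:48902736-48903116 on the minus strand of rn4, the rat build of the scanner files. Its M was 0.57 and 0.64 on the arrays against CC. On the arrays against AA-CJ it was 0.14 and 0.44. All 4 values were above 0, a shared sign that was not tested against a dye bias of the probe. Both values against CC were above both values against AA-CJ. The mean difference was 0.60 (SE 0.098), a 1.52-fold higher signal in CC-CJ than in CC, and 0.29 (SE 0.098), or 1.22-fold, over AA-CJ. Within the Cy5 channel Tagln was at 13.98 and 13.58 (log2 intensity) in AA-CJ and at 13.60 and 13.31 in CC, ranges that overlapped narrowly, and the difference of M for CC over AA-CJ was -0.31 (SE 0.14). In Cy3, CC-CJ lay between 13.95 and 14.17 on the 4 arrays.

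Tagln was the 1 member of 8 called higher in CC-CJ than in CC at an adjusted p under 0.05, where 0.0983% of all genes tested were called higher and 2.26% lower. No member was called in CC-CJ versus AA-CJ, where 1.94% of all genes were called higher and 1.16% lower, nor in CC versus AA-CJ, where 2.58% were called higher and 0.0796% lower. At an unadjusted p under 0.05 the members counted 2, 3 and 1 of 8 in these comparisons in the order CC-CJ versus AA-CJ, CC-CJ versus CC and CC versus AA-CJ, beside 22.6%, 16.9% and 17.8% of all genes. The 2 SD criterion of the study's methods, an M beyond 2 SD on both arrays, gave 0 members in CC-CJ versus AA-CJ and 1 in CC-CJ versus CC, beside 2.56% and 2.27% of all genes. The methods add further criteria, among them agreement of replicate probes and removal of likely left-over neuronal RNA, which are not part of this count. Since the genes were chosen on these same comparisons, the counts are a description. The call of Tagln was lost without either of the 2 CC arrays, where M stood at 0.64 without replicate 1 and 0.57 without replicate 2.

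Cnn1 (basic calponin), a brake on actomyosin in smooth muscle and a relative of transgelin, was read by 1 probe at chr8:21219991-21220050. Its M was 0.33 and 0.34 against CC, and -0.10 and 0.13 against AA-CJ. CC-CJ was thus above CC on both arrays by nearly the same amount, while against AA-CJ the arrays fell on either side of 0. The mean was 0.33 (SE 0.090), or 1.26-fold, over CC and 0.02 (SE 0.090) over AA-CJ. In Cy5, Cnn1 was at 7.88 and 7.73 in AA-CJ and at 7.38 and 7.44 in CC, which did not overlap, and CC over AA-CJ came to -0.32 (SE 0.13).

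Myl9, the regulatory light chain through which phosphorylation switches myosin II on, had 1 probe at chr3:147193774-147193833. Its M was 0.25 on both arrays against CC, and 0.03 and 0.06 against AA-CJ. All 4 values were positive, with dye bias again not tested, and those against CC were the higher pair. The mean was 0.25 (SE 0.078), or 1.19-fold, over CC and 0.04 (SE 0.078) over AA-CJ. In Cy5 it was at 14.53 and 14.31 in AA-CJ and at 14.26 and 14.09 in CC, again without overlap, and CC over AA-CJ was -0.21 (SE 0.11).

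**Figure D1:**
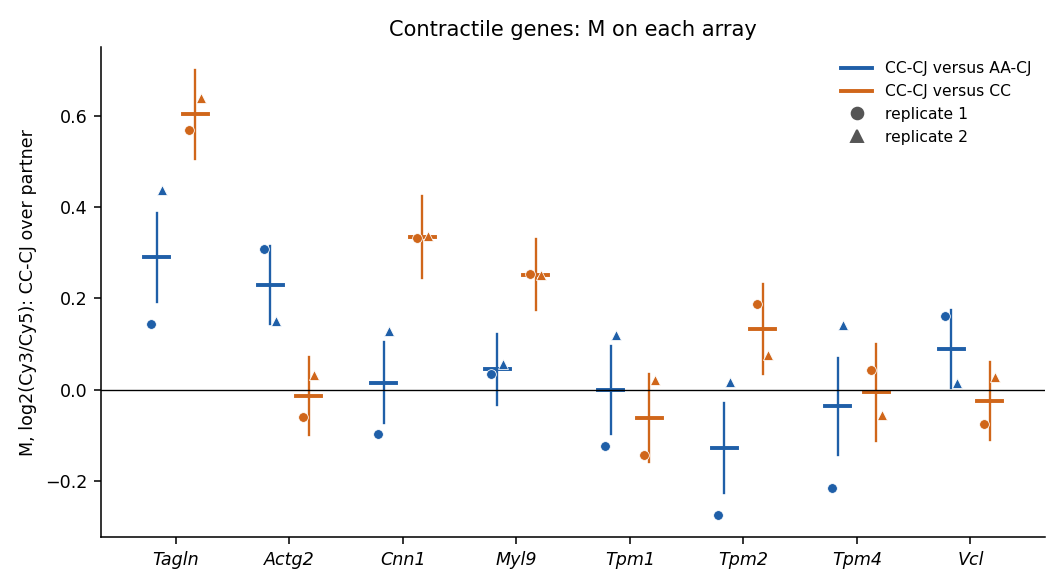
M (log2 of Cy3 over Cy5) of the 8 contractile genes with probes, on the 2 arrays of CC-CJ versus AA-CJ (blue) and the 2 arrays of CC-CJ versus CC (orange). Circles and triangles are replicates 1 and 2, wide bars the fitted means and thin lines 1 SE of limma to each side. Tagln, Cnn1, Myl9 and Tpm2 have both orange points above both blue points, and Actg2 has the reverse order.

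Actg2, the gamma actin of enteric smooth muscle, had 1 probe at chr4:117735561-117735620 and the opposite order. Its M was 0.31 and 0.15 against AA-CJ, and -0.06 and 0.03 against CC. CC-CJ was therefore above AA-CJ on both arrays and on either side of CC. The mean was 0.23 (SE 0.086), or 1.17-fold, over AA-CJ and -0.01 (SE 0.086) over CC. In Cy5, Actg2 was at 12.97 and 12.87 in AA-CJ and at 13.19 and 13.12 in CC without overlap, and CC over AA-CJ was 0.24 (SE 0.12). By their means, CC was thus below AA-CJ for Tagln, Cnn1 and Myl9 and above it for Actg2, with none of the 4 called.

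**Figure D2:**
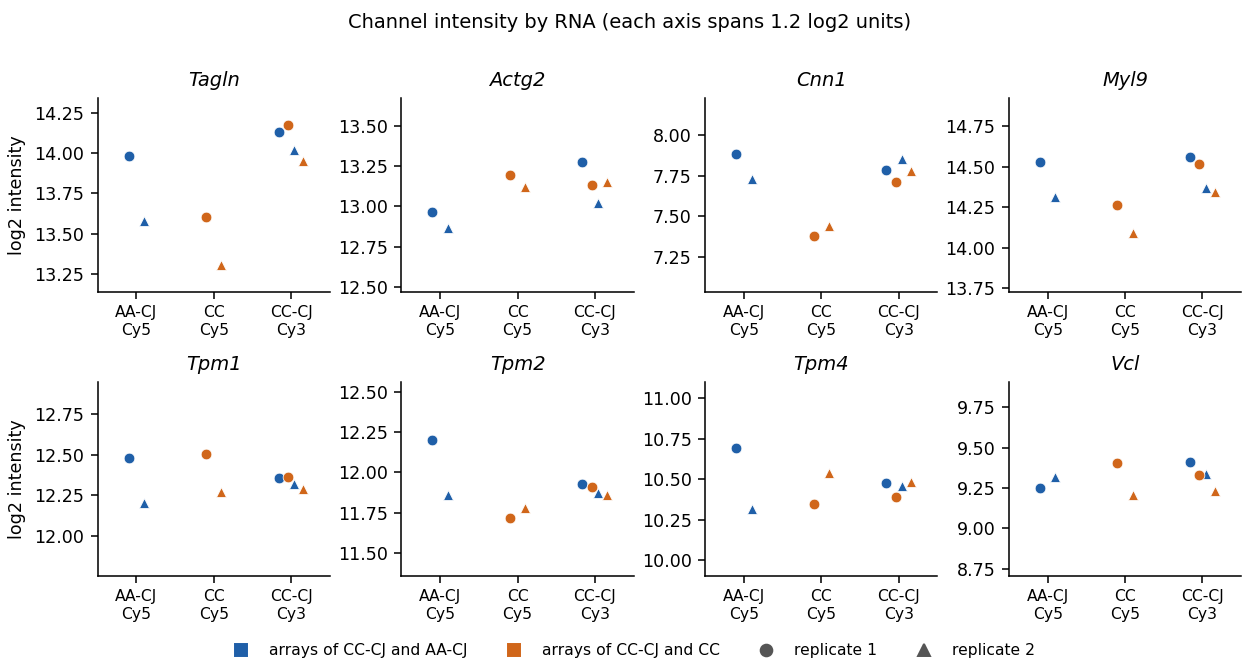
Log2 intensity of each gene in every channel reading after loess and scaling between arrays, by RNA and dye, with each axis spanning 1.2 log2 units. Blue marks the arrays of CC-CJ and AA-CJ, orange those of CC-CJ and CC, circles replicate 1 and triangles replicate 2. The 2 AA-CJ readings stand above the 2 CC readings for Cnn1, Myl9 and Tpm2 and below them for Actg2, while Cy3 and Cy5 readings may differ by dye.

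Tropomyosins lie along the actin filament and set which myosins and severing proteins reach it. Tpm1 was read by 4 probes over 9.982 kb of chr8:71331669-71341650. As a mean over these probes, M was -0.12 and 0.12 against AA-CJ and -0.14 and 0.02 against CC, on either side of 0 in both comparisons. The probes disagreed. The probe at chr8:71336933-71336989 had M of -0.23 and -0.36 against AA-CJ, and the probe at chr8:71340322-71340381 had 0.09 and 0.35 there. The probe at chr8:71331669-71331728, which names 4 RefSeq transcripts, shared none of them with the other three, and its M was -0.22 and 0.35 against AA-CJ and -0.01 and 0.11 against CC. The last probe, at chr8:71340840-71341650, was below 0 on both CC arrays, at -0.21 and -0.17.

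Tpm2 had 3 probes over 8.199 kb of chr5:59994138-60002336, all for the same RefSeq transcript. As their mean, M was -0.27 and 0.02 against AA-CJ and 0.19 and 0.08 against CC, so both values against CC were above both against AA-CJ. CC over AA-CJ was -0.26 (SE 0.14), or 0.835-fold. The probe at chr5:59994138-59994197 had M of 0.28 and 0.37 against CC, the probe at chr5:59997963-59998563 had 0.16 and 0.22, and the probe at chr5:60002277-60002336 had 0.13 and -0.35. The first of these had the brightest spots and the last the dimmest, at mean log2 intensities of 14.5 and 9.27, and the 2 CC arrays parted most at the dimmest.

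Tpm4, a tropomyosin of non-muscle cells, had 1 probe at chr16:18108915-18108974, with M of -0.22 and 0.14 against AA-CJ and 0.04 and -0.06 against CC. Its arrays fell on either side of 0 in both comparisons, with means of -0.04 and -0.01 (SE 0.11).

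Vcl codes for vinculin, which ties actin bundles to integrin adhesions. Its 3 probes lay at chr15:3478800-3478859, chr15:3480178-3480237 and chr15:3480198-3480257, and the last pair shared 40 bases. As their mean, M was 0.16 and 0.02 against AA-CJ and -0.08 and 0.03 against CC. The first of these values came mainly from the probe at chr15:3478800-3478859, which read 0.46 on that array and -0.08 on the other. The overlapping pair stayed between -0.11 and 0.09 on all 4 arrays.

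**Figure D3:**
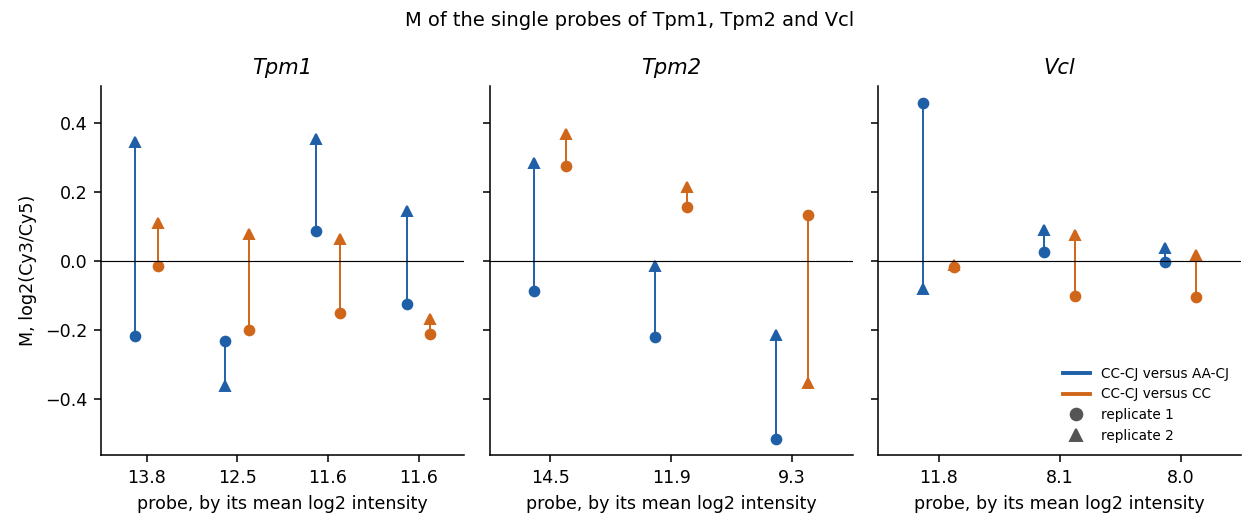
M of each single probe of Tpm1, Tpm2 and Vcl, with probes ordered and labelled by mean log2 intensity. Circles are replicate 1, triangles replicate 2, blue CC-CJ versus AA-CJ and orange CC-CJ versus CC. Probes of Tpm1 point both ways against AA-CJ, and the 2 brighter probes of Tpm2 are above 0 on both CC arrays.

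Over the 8 members, the median M was 0.03 in CC-CJ versus AA-CJ, 0.06 in CC-CJ versus CC and -0.12 in CC versus AA-CJ, beside -0.02, -0.02 and 0.00 over all genes tested. The median size of M without its sign was 0.07, 0.10 and 0.23 for the members and 0.12, 0.11 and 0.15 for all genes. M had the same sign on both arrays for 4 of 8 members in CC-CJ versus AA-CJ and for 4 of 8 in CC-CJ versus CC, beside 65.6% and 65.1% of all genes. The M values of the 2 pairs of arrays did not overlap for 5 members, of which Tagln, Cnn1, Myl9 and Tpm2 were lower in CC than in AA-CJ and Actg2 was higher. Of all genes 24.1% did not overlap with CC lower and 26.2% with CC higher. Arrays of 1 comparison differed by a median of 0.23 for the members and 0.14 for all genes in CC-CJ versus AA-CJ, and by 0.10 and 0.13 in CC-CJ versus CC.

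The sign of M in the comparisons of CC-CJ depended on the normalization. With each array only centred on its median, M fell with the brightness of the spots, and the median over all genes was -0.49 in CC-CJ versus AA-CJ and -0.59 in CC-CJ versus CC. The medians of the members were -1.26 and -1.12, and every member probe was brighter than the median kept probe. Tagln then read -0.76 on both CC arrays. CC versus AA-CJ, with both RNAs in Cy5, had a member median of -0.19 under median centring and no member called.

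**Figure D4:**
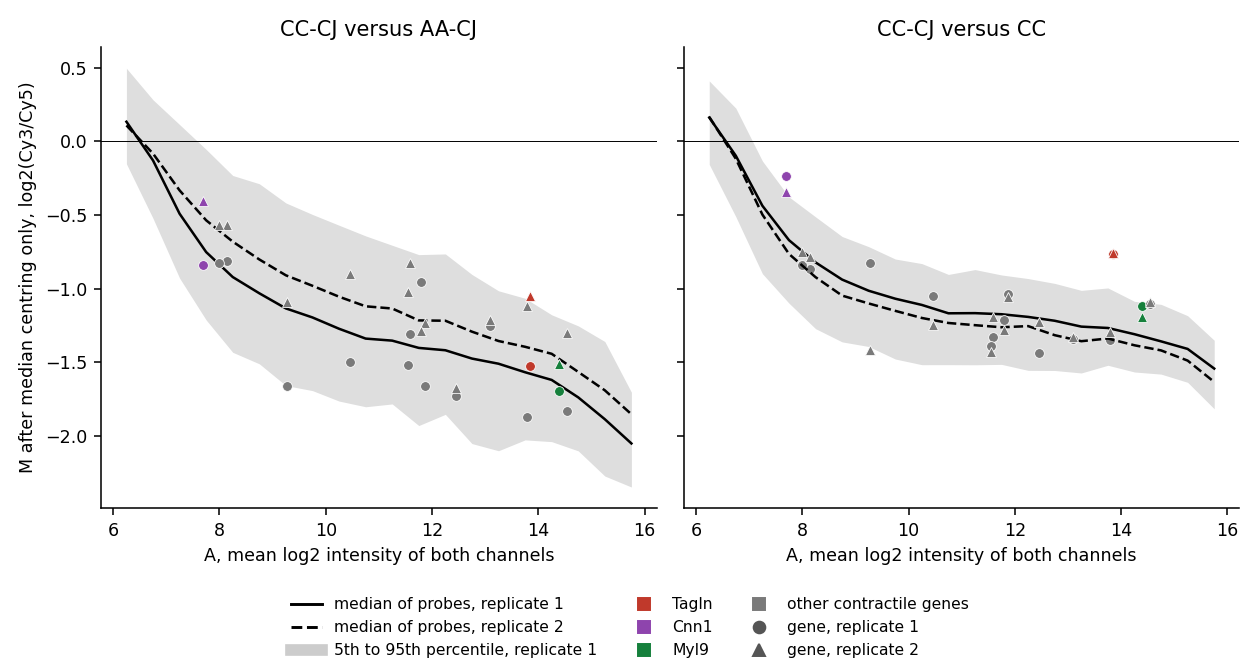
M after median centring alone against A (mean log2 intensity of both channels) on the arrays of CC-CJ versus AA-CJ (left) and CC-CJ versus CC (right). Lines are medians of all kept probes in bins of A on each replicate, the grey band the 5th to 95th percentile on replicate 1, and points the probes of the contractile genes. The medians lie above 0 in the dimmest bin shown and below 0 in the brighter bins on all 4 arrays, and both Tagln points on the right are at -0.76.

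Another 5 probes outside the rule carry related names in the files and were looked up after their values had been seen. A probe described as similar to calponin-2, at chr7:11226278-11227106, had M of 0.43 and 0.24 against CC and -0.29 and -0.12 against AA-CJ, the order seen for Cnn1. A second calponin-2-like probe and 1 described as similar to aortic smooth muscle actin were not well above background in any of 8 channel readings. A partial alpha-tropomyosin cDNA had M of 0.14 and -0.04 against AA-CJ and -0.14 and 0.05 against CC, while a fragment of the alpha-tropomyosin gene read 0.07 and 0.66, and 0.02 and -0.01.

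The CArG box, the element that SRF binds, was searched on both strands in the RefSeq promoters of build GRCr8 (250 bases before to 50 after the gene start). Only exact matches to CCWWWWWWGG, with W for A or T, were counted. Boxes with a mismatch or outside this window were not searched, so a gene without a match may still have a box. The table held 8 members, lacking Tagln and Myl9, and 1 of the 8 had a match, beside 1.64% of 33469 promoters. The match is in Cnn2, whose mRNA no member probe read, and begins 71 bases before the start. It is printed with its flanks because it is the 1 match among the members, at chr7:10370364-10370393 on the minus strand, with the box in capitals.
Cnn2: cgcttccacgCCTTATAAGGgcatttgccc

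Other genes of the same machinery were followed in 5 lists of 66 genes, of which 53 could be tested, 12 had no probe and 1 was too dim. In CC-CJ versus AA-CJ, 2 of the 53 were called higher and none lower, a share near the 1.94% and 1.16% of all genes, so that the count is no result about the lists. At an unadjusted limma p under 0.05 there were 17 of 53, beside 22.6% of all genes. Myl12b, a regulatory light chain of non-muscle myosin, had M of 0.63 and 0.54 (mean 0.59, SE 0.080, limma adjusted p 0.0218). Ilk, the integrin-linked kinase of focal adhesions, had M of 0.48 and 0.46 (mean 0.47, SE 0.079, limma adjusted p 0.0365). Against CC, both had smaller values, 0.08 and 0.08 for Myl12b and 0.20 and 0.17 for Ilk, and neither passed. Without the first AA-CJ array (replicate 1) the calls of Myl12b (M 0.54) and Ilk (M 0.46) were lost, and that of Ilk (M 0.48) also without replicate 2. With median centring in place of loess both turned negative, at -0.57 for Myl12b and -0.85 for Ilk, beside the median of -0.49 over all genes. Probes of like brightness had lower medians on the 2 AA-CJ arrays. They were -1.34 and -1.12 at log2 intensities of 10.5 to 11, near Myl12b, and -1.40 and -1.21 at 11.5 to 12, near Ilk. Both genes thus stayed above the medians of such probes.

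None of the 53 passed in CC-CJ versus CC by limma, with 27 positive and 26 negative and values from -0.46 to 0.39. At an unadjusted p under 0.05 there were 10 of 53, beside 16.9% of all genes, and 0 passed the 2 SD criterion of the methods, which 2.27% of all genes passed. In CC versus AA-CJ 1 of the 53 was called higher and none lower, where 2.58% of all genes were called higher and 0.0796% lower. Unadjusted, 12 of 53 had a limma p under 0.05 there, beside 17.8% of all genes.

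The medians of 4 lists lay between -0.13 and 0.13 in every comparison. The non-muscle actomyosin list (9 tested) had medians of 0.04, -0.13 and 0.13 in CC-CJ versus AA-CJ, CC-CJ versus CC and CC versus AA-CJ. Actb, the cytoplasmic beta actin, had M of 0.11 and -0.02 against AA-CJ and -0.37 and -0.30 against CC, the opposite sign to Tagln there, and did not pass. Its spots were very bright, at log2 intensities of 16.28 to 16.65, and their saturation is not given here. On the CC arrays, probes at 15.5 to 16 had a median M of -0.08 on each array after loess. Actg1 had no probe. The 6 tested genes of smooth and striated muscle had medians of -0.02, 0.01 and -0.04, and none passed. The 15 focal adhesion and linker genes had medians of 0.06, -0.01 and 0.07. The 11 SRF and MRTF factors and targets had medians of 0.02, 0.04 and -0.03, and none passed.

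**Figure D5:**
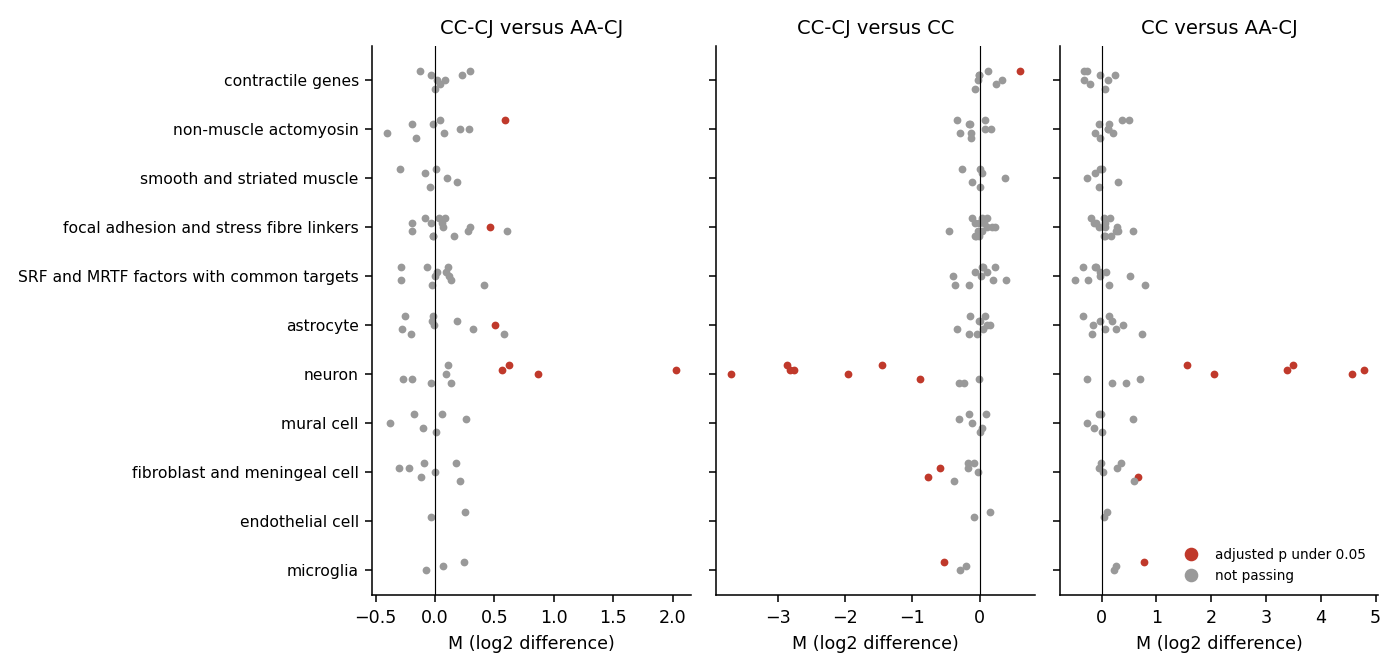
Mean M or difference of M (log2) of every tested gene of the contractile set, 4 lists of related genes and the cell type markers, in 3 comparisons with axes of their own. Red points had a limma adjusted p under 0.05. Tagln is the red point of the contractile set in CC-CJ versus CC, and neuronal markers spread furthest.

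Among the markers of other cells, neuronal, fibroblast and microglial genes were called lower in CC-CJ than in CC, and no mural or endothelial gene was called there. In whole cultures, fewer cells of a type and less RNA per cell cannot be told apart. Of the astrocyte markers, 5 had a positive and 5 a negative M in CC-CJ versus CC, with a median of 0.00 and a range of -0.33 to 0.15, and their summed linear intensity was 62501 to 65242 in CC-CJ, 60584 to 63414 in CC and 52525 to 63639 in AA-CJ, sums in which Cy3 and Cy5 may differ by dye. Gfap had M of -0.52 and 0.01 against AA-CJ and 0.42 and -0.25 against CC. Aqp4 rose over AA-CJ in CC-CJ (M 0.56 and 0.46, limma adjusted p 0.0310), a call lost without either AA-CJ array (M 0.46 and 0.56).

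Neuronal markers summed to 8311 to 8723 in CC-CJ, 20701 to 21975 in CC and 8705 to 9241 in AA-CJ. Most of the sum in CC-CJ and AA-CJ was Stmn2, a microtubule regulator named after its values were seen, with M of -0.07 and 0.07 against CC and -0.19 and -0.34 against AA-CJ. Without it the sums were 1980 to 2502, 14268 to 16155 and 1156 to 1224 in the same order. Mapt, the axonal protein tau, had M of -2.70 and -3.04 against CC. Gap43, Dcx, Elavl4, Snap25, Tubb3 and Nefl, further neuronal genes, were called lower there as well. Dcx, Elavl4, Mapt and Gap43 were the neuronal genes still called above AA-CJ in CC-CJ. Without replicate 1 of the AA-CJ arrays, with the replicate block or with Agilent's log ratio, Gap43 was the 1 gene of the 10 called there, and without replicate 2 the call of Mapt alone was lost. Dcx and Elavl4 were dim in AA-CJ, at log2 intensities of 6.14 and 6.31 and of 5.98 and 6.07. With no filter on dim probes the call of Elavl4 was lost (M 0.24). With every channel reading required to be well above background, 6 of the 10 could be tested. Of these, Mapt and Gap43 were called above AA-CJ, and Mapt, Gap43, Tubb3 and Nefl below CC.

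Pericytes and smooth muscle cells carry many of the contractile mRNAs, and 6 of 9 mural cell markers could be tested, with 3 positive and 3 negative in CC-CJ versus CC and none called. Their summed intensity was 17565 to 18093 in CC-CJ, 17007 to 18049 in CC and 18407 to 18982 in AA-CJ. Most of this sum was Notch3, a gene named after its values were seen, at log2 intensities of 13.55 to 13.67. It had M of 0.03 and 0.04 against CC. Pdgfrb, a receptor on the mural list, had M of -0.07 and 0.27 against CC, and Rgs5 had -0.31 and -0.30. Rgs5 was dim, at log2 intensities of 6.43 on both AA-CJ arrays and 7.05 and 7.18 in CC. Kcnj8 and Abcc9 were too dim and Myh11, the smooth muscle myosin heavy chain, had no probe.

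Fibroblast and meningeal markers were below 0 in 7 of 7 tested genes in CC-CJ versus CC, and summed to 130941 to 143985 in CC-CJ, 166895 to 167284 in CC and 141444 to 152164 in AA-CJ. Dcn, the matrix proteoglycan decorin (mean -0.77, limma adjusted p 0.00555), and Col1a2, a chain of type I collagen (mean -0.59, limma adjusted p 0.0311), passed there. Both calls were lost when CC replicate 2 was left out, where M was -0.71 and -0.48. Col1a1, the other chain, had M of -0.14 and -0.20. Among microglial markers 3 of 6 could be tested, all below 0 in CC-CJ versus CC, and Aif1 passed (mean -0.53, limma adjusted p 0.0436), a call lost without either CC array (-0.57 and -0.50). Dcn and Aif1 were also higher in CC than in AA-CJ (0.66 and 0.78, limma adjusted p 0.0420 and 0.0377). The call of Dcn was lost without any 1 of the 4 arrays (0.60 to 0.72), and that of Aif1 without any but replicate 2 of CC-CJ versus AA-CJ (0.64 to 0.82). Aif1 was dim, at log2 intensities of 5.92 and 5.93 in AA-CJ and 6.87 and 6.93 in CC. It was not well above background in every channel reading, so its calls depend on a filter that any 1 RNA could meet. Endothelial markers had 2 of 6 above the filter, at a summed 166 to 206 over all channels. By their medians in CC-CJ versus CC, neuronal (-1.70), microglial (-0.30), fibroblast (-0.17) and mural (-0.05) markers had negative M. The endothelial median was 0.03. Of the 8 members, Tagln, Cnn1, Myl9 and Tpm2 had positive means there, and Actg2, Tpm1, Tpm4 and Vcl negative ones. The part of RNA from other cell types in the values of the contractile genes was not tested.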

How the data were processed

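The authors deposited, per the file headers, the spot intensity in Cy3 and Cy5 with its local background on a linear scale, as Agilent Feature Extraction 9.5.1.1 wrote it. Beside it the authors deposited Agilent's log10 ratio of Cy5 over Cy3 after background and dye correction. The authors' processed ratios, deposited in 1 further table, are recorded here as log2. Its direction was Cy5 over Cy3 and its medians were -0.025 to 0.0099, but its slope on the log10 ratio was 2.05 to 2.60, where log2 gives 3.32, so its scale is not settled. The study's methods name OLIN and OSLIN for normalization, which were not run.

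Mean signals were corrected by normexp (offset 50) and normalized by loess (span 0.3) in R 4.3.3 with limma 3.58.1. Control spots and 121 to 179 outlier spots per array were left out. Of 41012 probes, those were kept (24865) whose signal for CC-CJ, AA-CJ or CC was well above background wherever that RNA was hybridized. A gene's value is the mean over its kept probes. Log2 intensities per channel were taken after Aquantile scaling and are open to dye bias. lmFit with 1 coefficient per comparison and eBayes (2 residual and 4.71 prior degrees of freedom) gave Benjamini-Hochberg adjusted p over 21366 genes, and 5 genes lacked a value on some array. P-values measure the spread between these arrays. The steps were tested on simulated data. For names, 10835 probes were matched to RefSeq transcripts of GRCr8. Probe positions are those of rn4 in the files, and exons, UTRs and probe sequences were not analysed here.

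The members and all lists were chosen with earlier results of these data known. The genes of 1 list of the 5 count in the totals over the lists and are otherwise not reported here. Named are all members, Actb and Actg1, the markers Gfap, Aqp4, Mapt, Pdgfrb, Rgs5 and Col1a1, and the genes of the other lists under an adjusted p of 0.05, at most 10 in each comparison. Other names were chosen after their values were seen. Alternatives concerned background, offset, normalization, source of values, filter, arrays fitted, prior, replicate block, brightest probe, the methods' criterion and each array left out.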

Additional observations from a re-analysis of the deposited data

How the results depend on the processing

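In CC-CJ versus AA-CJ the median M of the 8 members was 0.03 and 0 members, 2 genes of the 5 lists and 662 genes in all were called. In CC-CJ versus CC these values were 0.06, 1, 0 and 504, and in CC versus AA-CJ -0.12, 0, 1 and 568. Median centring in place of loess moved the medians of the members to -1.26 and -1.12 in the first pair of comparisons, with 8 and 7 members, 44 and 47 genes of the lists and 13238 and 14334 genes called. It turned M negative for Tagln in CC-CJ versus CC (-0.76) and, in CC-CJ versus AA-CJ, for Myl12b (-0.57), Ilk (-0.85) and Aqp4 (-0.069). The values of Tagln, Myl12b and Ilk stayed above the medians of probes of like brightness. Median centring gave 781 genes in CC versus AA-CJ. Agilent's log ratio left 0 members, 0 genes of the lists in any comparison, and 77, 274 and 250 genes in the order above. An offset of 16 left 1, 0 and 0 genes of the lists, 336 genes in CC-CJ versus AA-CJ, and 0 members in CC-CJ versus CC. The authors' value table gave a median of 0.14 and 2 members, Tagln and Cnn1, in CC-CJ versus CC. The brightest probe per gene gave a median of 0.15 there and 5 genes of the lists in CC-CJ versus AA-CJ. Under the strict filter, with every channel reading above background, 4 genes of the lists were called in CC-CJ versus AA-CJ, and 290 and 348 genes in the other two comparisons. A fit of only the 2 arrays of CC-CJ versus AA-CJ called 5 genes of the lists and 1121 in all. A mean-variance trend added 1 gene of the lists, Actb, in CC-CJ versus CC. For these changes, other than fewer arrays or genes, the cause was not tested.

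Deviations of same-numbered arrays correlated at r = -0.112 over 21361 genes, and the labels do not state a pairing. With the replicate block, 0 members and 0 genes of the lists were called in any comparison, and 170, 306 and 294 genes in all. With the pairing crossed, a block chosen after seeing the data, 0, 1 and 0 members, 6, 1 and 2 genes of the lists and 1492, 849 and 828 genes were called.

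Leaving out each array in turn, the median of the members ran from -0.03 to 0.12 in CC-CJ versus AA-CJ, from 0.055 to 0.12 in CC-CJ versus CC and from -0.21 to -0.04 in CC versus AA-CJ. Members called were 0 to 0, 0 to 1 and 0 to 0, genes of the lists 0 to 5, 0 to 0 and 0 to 2, and all genes 122 to 1121, 204 to 688 and 352 to 653. Where 1 array was left, its spread was assumed to be that of the other comparison. Of the single values of members under the alternatives, 98 of 120 kept within their SE or their side of the threshold in CC-CJ versus AA-CJ, 102 of 120 in CC-CJ versus CC and 100 of 112 in CC versus AA-CJ. The filters, the trend, the replicate blocks and the fit of only the arrays of a comparison could not change a member's M, only its p. In the comparisons of CC-CJ the same held for leaving out an array of the other comparison. These counts were thus partly fixed in advance and do not measure robustness.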
